A study of Mus musculus with 6 samples.

Results

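The Notch pathway was examined in neonatal mouse cerebellum through 10 genes: the receptors Notch1, Notch2 and Notch3, the ligands Dll1, Dll3 and Jag1, and the target genes Hes1, Hes5, Hey1 and Heyl. They were chosen by name, and all array probes that carry one of these symbols were taken, which gave 14 probes of 55681 and 10 genes of the 24082 named on the array. The arrays compare 2 cell fractions that the study describes as positive for the surface glutamate transporter GLAST. They differ in ACSA-2, an epitope of the sodium pump subunit encoded by Atp1b2. The fractions are called A+/G+ and A-/G+. Each was measured on 3 one-colour arrays, which the labels call biological replicates, from 50000 magnetically sorted cells per sample. The comparison asks which genes differ between the fractions sorted with and without ACSA-2.

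All 6 samples came from untreated wild-type cerebellum of the CD1 strain at postnatal days 1 to 3 according to the labels. The study's methods instead give P0/P1 for the array samples and a C57BL/6 background for its wild-type mice. Cerebella of either sex were pooled before sorting. A+/G+ cells were enriched with anti-ACSA-2 beads alone, without selection for GLAST, and the study counted rare cells with ACSA-2 but no GLAST among them. By its flow cytometry both fractions were enriched but not pure. A-/G+ cells were first depleted of cells with ACSA-2, L1CAM, PSA-NCAM, CD45 or Ter119 and then selected for GLAST, so the fractions also differ in how neurons and blood cells were removed. In the sorted RNA, the log2 signal of Atp1b2 was 12.70 to 12.97 in A+/G+ and 10.31 to 10.86 in A-/G+ (limma, adjusted p = 0.00725), and the GLAST gene Slc1a3 lay at 13.26 to 13.61 in A+/G+ and 14.00 to 14.92 in A-/G+ (adjusted p = 0.0733 by limma). All 8 genes of an astroglial marker list were well above background on all 6 arrays.

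Notch receptors sit in the membrane and are switched on by Delta or Jagged ligands on neighbouring cells. Binding leads to cleavage, the freed intracellular part enters the nucleus and joins the DNA-binding protein RBPJ, and the complex turns on Hes and Hey genes, whose products repress neuron-forming factors. In the developing cerebellum the pathway is known for keeping progenitors and radial glia undifferentiated, and in vessels Notch3 and Heyl are known genes of mural cells.

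Hes5 is shown first among the sequences because its promoter is a textbook RBPJ-bound element and because the gene was well above background in every sample of both fractions. Of the 10 genes, 7 have an entry in the RefSeq promoter table (GRCm38.p6). Hes1, Hey1 and Heyl have none, so Hes5 was the only target gene searched, beside receptors and ligands. The 250 bases before each start were searched on both strands for GTGGGAA, a form of the RBPJ site whose reverse complement is TTCCCAC. Hes5 was the only gene of the 7 with a match, and it had 2, which start 226 and 83 bases before the transcription start and are in capitals below. The word was found in 5.42% of all 32851 promoter windows of this length, and in 0.161% of them at least 2 times. A match is only a description of the letters in the window. The Hes5 window lies on chr4:154960673-154960922, plus strand.
Hes5 promoter: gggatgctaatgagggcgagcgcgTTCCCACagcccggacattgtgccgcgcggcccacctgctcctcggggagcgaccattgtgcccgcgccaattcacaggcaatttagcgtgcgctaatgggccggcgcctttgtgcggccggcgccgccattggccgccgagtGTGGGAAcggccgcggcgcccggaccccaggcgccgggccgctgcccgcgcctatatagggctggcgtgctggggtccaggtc

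Values below are log2 signals after quantile normalization. For a gene with several probes, the probe with the highest mean over the 6 arrays stands for it. Differences subtract the A-/G+ mean from the A+/G+ mean of these log2 values and come with their 95% interval, and the adjusted p is that of limma over all 55681 probes with Benjamini-Hochberg correction. Signals of different probes are not compared with each other, since probes bind with different strength. In sorted bulk RNA a lower signal may come from fewer cells of a type or from less RNA per cell, and these cannot be told apart.

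Most of the 10 genes had like signals in A+/G+ and A-/G+, and only Heyl and Notch1 passed an adjusted p of 0.05. Heyl was higher in A+/G+ and Notch1 in A-/G+. Thus 1 of 10 genes passed in each direction, where 7.48% of all 24082 named genes passed with higher signal in A+/G+ and 5.12% with higher signal in A-/G+, so the share of members is near the background. Heyl alone also had medians at least 4-fold apart, the second limit of the study's methods, and so 1 of 10 genes passed both limits toward A+/G+, against 2.62% of all genes. The A-/G+ median of Heyl comes from an array on which it was not well above background. The size of its fold is therefore not measured on both sides. With background modelled by normexp 0 of 10 genes passed both limits by limma, and 2 passed the adjusted p. In that fit 3 of 10 genes had an unadjusted p under 0.05, beside 13702 of 55681 probes. Toward A-/G+ 0 of 10 passed both limits by limma, against 0.44% of all genes, and 0 by the methods' t-test. Only Notch1 had an unadjusted p under 0.05 in that direction. Over both directions 2 of 10 genes had one by limma, beside 12974 of 55681 probes. The 3 arrays of a fraction all lay above the 3 of the other for 1 of 10 genes toward A+/G+ and 1 of 10 toward A-/G+. Over all genes these shares were 19.1% and 23.3%. The median difference of the 10 genes was 0.00, beside -0.03 for all named genes. The plot of the signals on each array shows the 10 genes side by side.

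**Figure D1:**
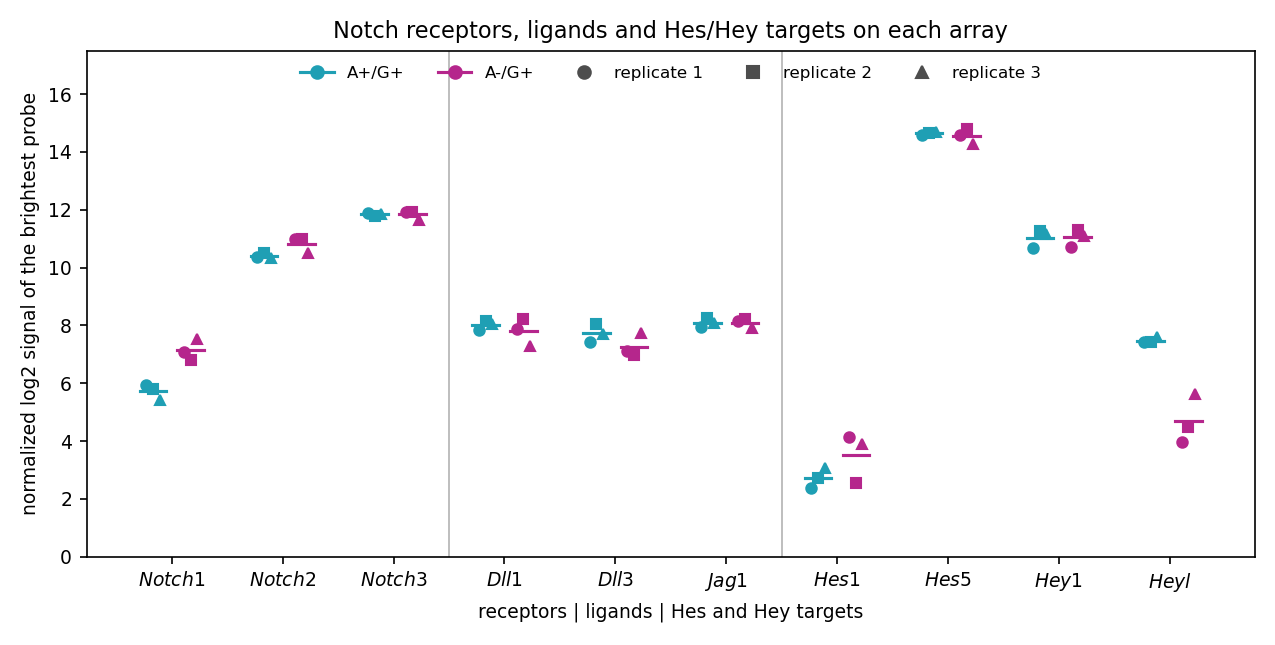
Normalized log2 signal (y axis) of the brightest probe of each of the 10 genes (x axis), with 1 point per array, the replicate given by the point's shape and the fraction mean as a bar. A+/G+ and A-/G+ points lie apart only for Notch1, which was higher in A-/G+, and Heyl, which was higher in A+/G+. None of the Hes1 points was well above background.

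Among the receptors, Notch1, a receptor known for its role in neural progenitors, was the only one to pass. Its brightest probe gave 5.95, 5.80 and 5.43 in the 3 A+/G+ samples and 7.09, 6.80 and 7.53 in the 3 A-/G+ samples. Every A-/G+ sample thus lay above every A+/G+ sample, and the probe was well above background on all 6 arrays. The means were 5.73 ± 0.27 and 7.14 ± 0.37 (SD, n = 3 each). The difference was -1.41 (-2.03 to -0.79, SE 0.24, adjusted p = 0.0332 by limma), and the medians were 2.44-fold apart. An exact permutation test of the 6 arrays gave the smallest p that 3 against 3 arrays can give, 0.1 (two-sided).

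The call for Notch1 rests on few arrays. Leaving out 1 array at a time, it kept an adjusted p under 0.05 only without A-/G+ replicate 2 or without A-/G+ replicate 3, and the range was 0.0348 to 0.12, with differences from -1.58 to -1.21. It did not pass by the methods' t-test (adjusted p = 0.0751), and did with background modelled by normexp (adjusted p = 0.0155 by limma). The probe that gave the call is shown so that the part of the transcript it reads can be seen. It lies on chr2:26319440-26319499 (mm9, minus strand), at position 5898 of the transcript in the array annotation.
Notch1 probe: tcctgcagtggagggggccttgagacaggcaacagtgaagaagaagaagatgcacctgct

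The other Notch1 probe sits 2323 bases further along the transcript, at chr2:26314630-26314689. It gave 4.02, 3.97 and 4.14 in A+/G+ and 4.94, 4.08 and 3.30 in A-/G+, a difference of -0.06 (adjusted p = 0.945 by limma). The fractions overlapped there, and no A-/G+ array was well above background, so the direction of Notch1 is carried by the brighter probe alone. Averaged over both probes Notch1 did not pass.

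Genes of 2 marker lists, of Bergmann glia and of the cell cycle, moved in the same direction as Notch1. All 6 genes of a Bergmann glia list, the radial glia of the cerebellar cortex, rose in A-/G+, where 5.12% of all named genes did. Their summed signal was 16000 to 22000 there and 3490 to 4280 in A+/G+. The study had already named Gdf10, Gria1, Mybpc1 and Npy as A-/G+ genes from these same arrays, so their direction was known beforehand. The other genes of the list, Hopx and Sept4, differed by -1.42 and -1.18 (adjusted p = 0.0089 and 0.0251 by limma). Of 6 cell cycle genes, 2 rose in A-/G+ (Mki67, the Ki-67 antigen, and Ccnb1, cyclin B1), and all 6 had the higher mean there, with a summed signal of 20600 to 25400 against 14200 to 17100. Their part in the Notch1 difference was not tested.

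Notch2, a receptor of similar structure, gave 10.36, 10.51 and 10.32 in A+/G+ and 11.00, 10.99 and 10.49 in A-/G+. A-/G+ replicates 1 and 2 were higher than every A+/G+ sample, while A-/G+ replicate 3 lay within the A+/G+ range. The difference of -0.43 (-0.86 to 0.00) did not pass (adjusted p = 0.217 by limma). Without A-/G+ replicate 3 it was -0.60 and passed (adjusted p = 0.0220 by limma).

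The dimmer Notch2 probe, 2681 bases upstream in the transcript, gave 4.04, 4.43 and 4.20 in A+/G+ and 6.01, 6.37 and 4.92 in A-/G+. Here the fractions did not overlap, with A-/G+ higher, and the probe was above background on 3 A+/G+ and 2 A-/G+ arrays. The difference of -1.54 (SE 0.41) had an adjusted p of 0.0901 by limma, which fell to 0.0343 when only probes above background on all arrays of a fraction were tested. Both Notch2 probes therefore pointed toward A-/G+, and neither passed over all probes and arrays.

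Notch3, the receptor best known from vascular smooth muscle and also expressed in glial progenitors, gave 11.90, 11.78 and 11.85 in A+/G+ and 11.93, 11.94 and 11.64 in A-/G+. All A+/G+ samples lay within the range of the A-/G+ samples. The difference was 0.01 (adjusted p = 0.977 by limma), and its interval of -0.26 to 0.28 leaves room only for differences well under the 4-fold limit.

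None of the 3 ligands passed in either direction by limma, at the adjusted or at the unadjusted p of 0.05, and none passed by the methods' t-test. Dll1, an activating Delta ligand that progenitors and early neurons present to their neighbours, gave 7.85, 8.14 and 8.06 in A+/G+ and 7.89, 8.23 and 7.29 in A-/G+. The lowest value was that of A-/G+ replicate 3, and the other 5 arrays lay close together. The difference was 0.21 (-0.47 to 0.90, adjusted p = 0.644 by limma), and it was -0.04 without that array. The second Dll1 probe was well above background on 0 of 6 arrays.

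Dll3 is a divergent Delta ligand that acts mainly inside the cell and does not activate receptors on neighbours. Its brightest probe gave 7.44, 8.04 and 7.71 in A+/G+ and 7.12, 6.97 and 7.73 in A-/G+. A-/G+ replicate 3 lay among the A+/G+ samples and the other A-/G+ samples below them. The difference was 0.46 (-0.22 to 1.15, adjusted p = 0.398 by limma). The other Dll3 probe differed by 0.21 (adjusted p = 0.557 by limma).

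Jag1, a Jagged ligand expressed by cerebellar progenitors and by vessels, gave 7.95, 8.26 and 8.10 in A+/G+ and 8.15, 8.24 and 7.91 in A-/G+. The fractions overlapped fully. The difference was 0.00 (-0.33 to 0.33, adjusted p = 0.998 by limma).

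The 4 targets did not move as a group. Hes5, a repressor that marks active Notch signalling in neural progenitors and whose promoter is printed above, gave 14.59, 14.65 and 14.69 in A+/G+ and 14.57, 14.78 and 14.27 in A-/G+. Its signal was thus high in every sample of both fractions, with A-/G+ replicate 3 lowest. The difference was 0.11 (-0.26 to 0.47, adjusted p = 0.672 by limma). No array was saturated at this probe.

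Hey1, a Hes-related repressor, gave 10.68, 11.27 and 11.16 in A+/G+ and 10.72, 11.30 and 11.11 in A-/G+. Each fraction held a low and a high sample, and the spread within a fraction was far larger than the difference between them of -0.01 (-0.60 to 0.58, adjusted p = 0.979 by limma). Hes1, the most widely expressed target of the family, could not be read on these arrays. Its only probe was well above background on 0 of 6 arrays, with values of 2.39 to 3.08 in A+/G+ and 2.54 to 4.16 in A-/G+.

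**Figure D2:**
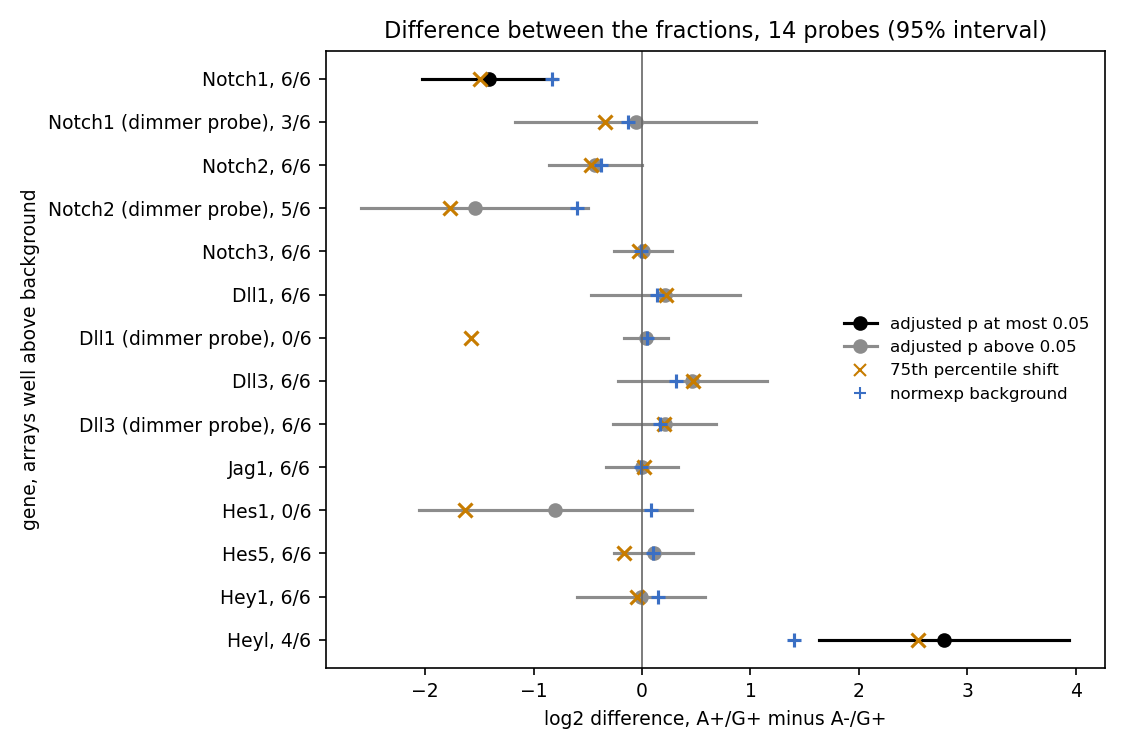
Log2 difference, A+/G+ minus A-/G+ (x axis), for each of the 14 probes (y axis, with the number of arrays of 6 on which the probe was well above background). Points and lines give the estimate and its 95% interval, black where the adjusted p was at most 0.05 (Notch1 at -1.41 and Heyl at 2.78), and crosses give the estimate under other scalings, of which normexp gave 1.40 for Heyl and -0.83 for Notch1.

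Heyl, a Hey-family repressor, differed most of the 10 genes. It gave 7.42, 7.42 and 7.60 in A+/G+ and 3.97, 4.48 and 5.63 in A-/G+. All A+/G+ samples lay above all A-/G+ samples, and within A-/G+ only replicate 3 was well above background. The means were 7.48 ± 0.11 and 4.69 ± 0.85 (SD, n = 3 each). The difference was 2.78 (1.63 to 3.94, SE 0.45, adjusted p = 0.0286 by limma), and an exact permutation test again gave its smallest p of 0.1 (two-sided). The fitted medians were 7.68-fold apart, but A-/G+ replicates 1 and 2, the median included, were not well above background, so this fold and the log2 difference depend on the background level there. The probe, the only one for Heyl, lies on chr4:122926975-122927034 (mm9).

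Heyl kept its direction under every alternative run, with differences from 1.40 to 3.25. Its adjusted p passed in only 1 of the 6 fits that left out an array, the one without A-/G+ replicate 3 (0.00635), and was 0.0504 to 0.115 in the others. It was 0.0691 by the methods' t-test. With background modelled by normexp the difference was 1.40 and passed the adjusted p (0.00243 by limma), but the medians were no longer 4-fold apart.

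Genes of vessel cells moved in the same direction as Heyl. All 10 pericyte and smooth muscle genes, the mural cells that wrap small vessels, lay above in every A+/G+ sample, and 5 of the 10 passed. Over all named genes these shares were 19.1% and 7.48% toward A+/G+. Their summed signal was 5960 to 6780 in A+/G+ and 1290, 1060 and 2110 in A-/G+ replicates 1, 2 and 3. A-/G+ replicate 3 was thus the highest of its fraction for this sum as for Heyl. Within the list, Tagln, Anpep and Myh11 were instead highest in A-/G+ replicate 1. Pdgfrb, the receptor that defines pericytes, rose in A+/G+ by 1.52 (adjusted p = 0.00483 by limma), and the smooth muscle myosin gene Myh11 was well above background on 0 of 6 arrays. The 10 endothelial genes all had the higher mean in A+/G+ and 1 passed, and their summed signal was 8600 to 13100 in A+/G+ and 1870, 2030 and 8900 in A-/G+. Other lists moved with Heyl as well. All 6 meningeal fibroblast genes lay above in every A+/G+ sample and 3 passed, and 3 of 7 oligodendrocyte lineage genes and 4 of 6 multiciliated cell genes rose in A+/G+. A-/G+ replicate 3 was also the highest A-/G+ sample for the summed oligodendrocyte lineage (4260), pan-neuronal (10600), granule neuron (15800) and microglia and blood (8160) genes. The last sum came mostly from Hba-a1 (11.86, 11.18 and 12.82), while Csf1r was highest in A-/G+ replicate 1 and Aif1 in A-/G+ replicate 2. The place of A-/G+ replicate 3 is thus not particular to vessel genes, and it was the brightest A-/G+ array. Not all lists followed this order. Meningeal fibroblast genes summed to 36200, 24900 and 12300 in A-/G+ replicates 1, 2 and 3. Multiciliated cell genes summed to 5910, 1630 and 1710, but most of each sum came from Mcidas alone (12.43, 10.49 and 10.28). Of the others, Foxj1, Dnah11 and Rsph1 were highest in A-/G+ replicate 3, and Ccdc39 and Tmem212 in A-/G+ replicate 1. The part of vessel or other cells in the Heyl difference was not tested. Notch3, listed above as a gene of mural cells and of glial progenitors, differed by 0.01, and which cells gave its signal was not tested.

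**Figure D3:**
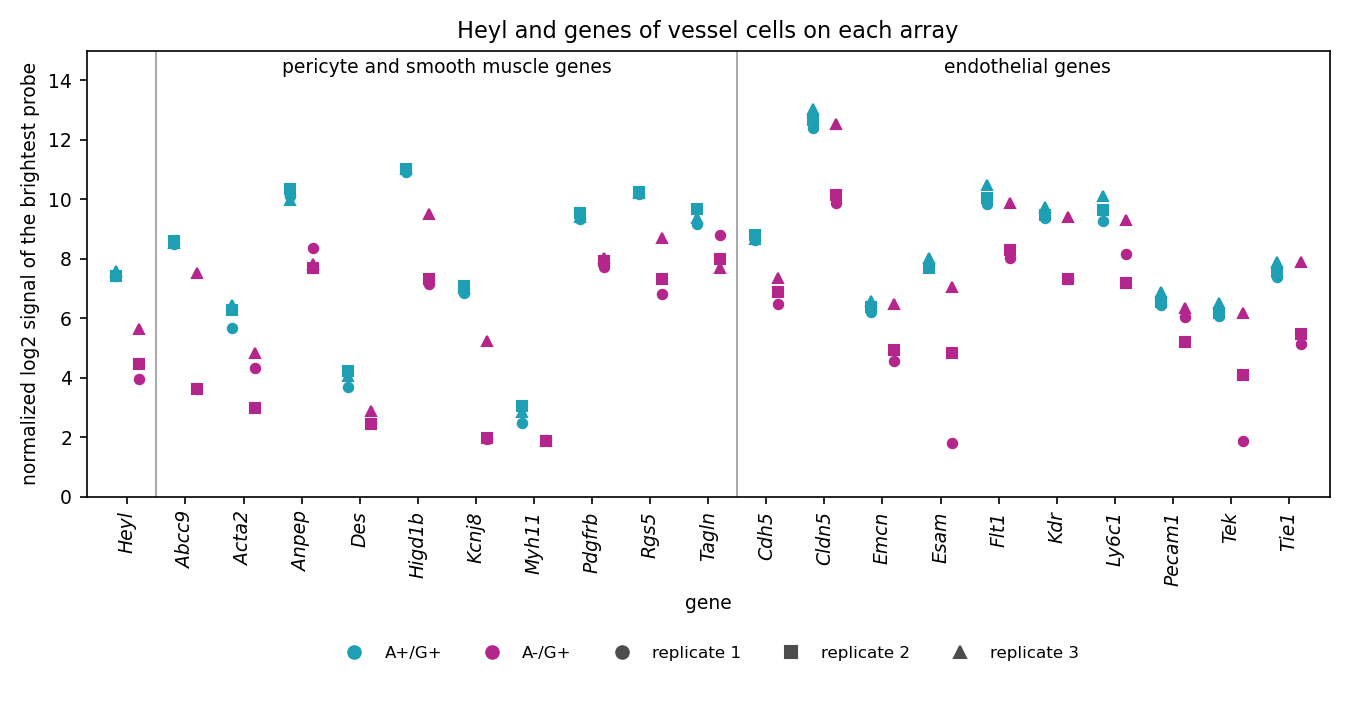
Normalized log2 signal (y axis) of Heyl and of the 10 pericyte and smooth muscle genes and 10 endothelial genes (x axis), with 1 point per array. A-/G+ replicate 3 (triangles) was the highest A-/G+ sample for Heyl at 5.63, for every endothelial gene and for most pericyte and smooth muscle genes. Tagln, Anpep and Myh11 were highest in A-/G+ replicate 1.

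Around the 10 genes, 66 further genes of the pathway were read from lists by role. By limma 8 of 66 passed an adjusted p of 0.05 with higher signal in A+/G+ and 5 of 66 with higher signal in A-/G+, beside 7.48% and 5.12% of all genes, and the median difference was 0.15. Past both limits were Dner, Dlk1 and Neurl1a in A+/G+ and Ptf1a in A-/G+. The number that passed depended on A-/G+ replicate 3, without which 20 and 10 of the 66 passed. Of the fits that left out 1 array, the other 5 gave 1 to 5 and 1 to 3. Dner passed in all 6 of these fits, and each other gene described below as passing did so in 1 to 4 of them.

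Among the other receptors and ligands, 3 of 9 genes rose in A+/G+ and 1 in A-/G+. Dner, a membrane protein of Purkinje cells described as a Notch ligand, gave 11.23, 10.89 and 10.87 in A+/G+ and 7.76, 7.61 and 7.59 in A-/G+. Each fraction was tight, and the difference of 3.34 (3.02 to 3.66, adjusted p = 0.00257 by limma) was the largest of the 13. Beside it, 4 of 6 Purkinje cell genes rose in A+/G+, where 7.48% of all named genes did. Their summed signal was 1460 to 4460 there and 74.2 to 117 in A-/G+. In A-/G+ only Pcp2 was well above background, on 2 arrays, so the lower sum lies near background and the fold is not measured. The part of Purkinje cell genes in the Dner difference was not tested.

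Dlk1, a Delta-like protein without the domain that activates receptors, gave 11.45, 11.83 and 11.33 in A+/G+ and 9.65, 8.21 and 9.39 in A-/G+. The fractions were clearly apart, with A-/G+ replicate 2 lowest, and the difference was 2.45 (adjusted p = 0.0338 by limma). Its relative Dlk2 rose by 1.97 (adjusted p = 0.0362 by limma). Cntn1, a contactin described as a Notch ligand of the oligodendrocyte lineage, fell by 0.73, so it was higher in A-/G+ (adjusted p = 0.0460 by limma). The receptor Notch4 and the ligands Dll4 and Jag2 did not pass, and for Dll4 and Jag2 only 1 A-/G+ array was well above background.

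Few genes passed in the machinery that processes receptors and ligands. Of 10 genes for receptor glycosylation and ligand endocytosis, 1 passed, Neurl1a, a ubiquitin ligase that helps ligands enter the cell, which rose in A+/G+ by 1.81 (adjusted p = 0.0320 by limma). The fringe genes Lfng, Mfng and Rfng, whose enzymes tune which ligand a receptor answers to, differed by -0.31, 0.52 and -0.38 and did not pass. Of 8 cleavage genes, 1 passed, Psen2 of the gamma-secretase complex, with 0.40 toward A+/G+ (adjusted p = 0.0474 by limma). Adam10, Aph1a and Psenen differed by 0.06 or less in either direction at their brightest probes. A dimmer Aph1a probe, well above background on every array, differed by -0.62 without overlap but did not pass (adjusted p = 0.147 by limma).

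In the nuclear complex, 2 of 15 genes passed, and both are Groucho-type corepressors that Hes proteins recruit. Tle2 rose in A+/G+ by 1.07 (adjusted p = 0.0478 by limma) and Tle3 in A-/G+ (difference -0.35, adjusted p = 0.0341 by limma). Among 10 inhibitors and turnover genes, Nrarp, a feedback inhibitor that Notch itself induces, gave 8.30, 8.36 and 8.26 in A+/G+ and 6.52, 7.27 and 6.95 in A-/G+, without overlap. Its difference was 1.39 (0.87 to 1.91, adjusted p = 0.0223 by limma). Fbxw7, which marks the freed Notch fragment for destruction, was higher in A-/G+ (difference -0.61, adjusted p = 0.0373 by limma).

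Among 5 other Hes and Hey genes, Hes3 passed in the fit (adjusted p = 0.0167 by limma), but 0 of 6 arrays had it well above background, so no size is given. Hey2 was well above background on the 3 A+/G+ arrays (5.74, 5.89 and 5.44) and on none of A-/G+ (1.99, 4.20 and 2.41). That gives a signal at least 1.73-fold higher in A+/G+, counted against the lowest signal well above background, but the fit did not pass (adjusted p = 0.0597 by limma). Hes6, which counteracts Hes1, differed by -0.16 and Hes7 by 0.01, and neither passed.

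The proneural factors are the genes that Hes proteins repress. Among them Ptf1a, which specifies the inhibitory neurons of the cerebellum, gave 7.14, 7.71 and 7.79 in A+/G+ and 10.32, 10.64 and 9.73 in A-/G+, a difference of -2.69 (adjusted p = 0.0134 by limma). Atoh1, which specifies granule neurons, differed by 1.29 with overlapping fractions and did not pass (adjusted p = 0.263 by limma).

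**Figure D4:**
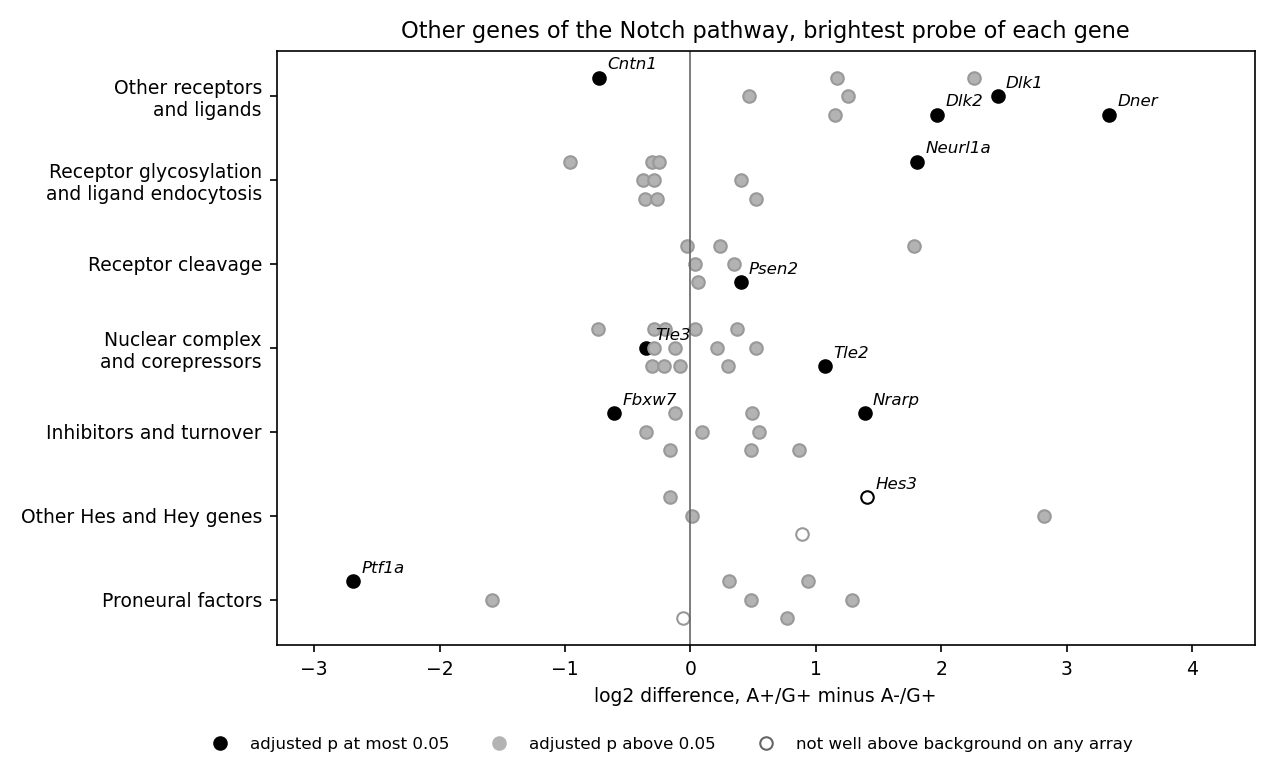
Log2 difference, A+/G+ minus A-/G+ (x axis), of the brightest probe of 64 of the 66 other pathway genes grouped by role (y axis). Genes with an adjusted p of at most 0.05 have a black outline and are named, and open symbols were not well above background on any array. Dner at 3.34 and Ptf1a at -2.69 lie farthest out among the named genes.

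The arrays differed in brightness before normalization, and this moved with the fractions. The signal below which 75% of gene spots lay was 332 to 334 in A+/G+ but 56.6, 113 and 251 in A-/G+ replicates 1, 2 and 3, and 26469 to 26653 probes were well above background in A+/G+ against 18331, 21406 and 24726. Scaling by that 75% point in place of quantiles moved the dimmer Dll1 probe from 0.04 to -1.58 and Hes1 from -0.80 to -1.63. Neither probe was well above background on any array. The same scaling moved Heyl from 2.78 to 2.54 and the dimmer Notch1 probe from -0.06 to -0.34. All A+/G+ arrays were on a single slide and all A-/G+ arrays on another, so slide and fraction cannot be told apart.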

How the data were processed

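Each sample was hybridised to a one-colour Agilent array with 60-base probes. The authors deposited the scanner's intensity for every spot (Feature Extraction 10.7.3.1, probes placed on mm9), background-subtracted by the scanner software and not normalized between arrays, and a log2 table of their processed values. The deposited log2 table was used only as an alternative. From the intensities, control spots and outlier-marked spots were dropped, log2 values were quantile normalized as in the study's methods, spots of a probe were averaged and limma 3.58.1 in R 4.3.3 was fitted over 55681 probes without covariates. Calls used an adjusted p of at most 0.05, and where stated medians at least 4-fold apart. Array number, not counting depth, limits precision.

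All probes of the 10 genes were described. Other pathway genes were named where they passed at their brightest probe, and some that did not pass were named beside them, without a fixed rule. Marker genes were named where a sentence on a list needed them. Of the 66 pathway genes, 2 are counted but not reported singly here. The members and lists were chosen with earlier results of these data known. The limma script was tested on simulated data. Alternatives were a 75th percentile shift, normexp background (offset 50), the deposited log2 table, dropping dim probes, outlier spots kept, the methods' t-test, a trended variance, a replicate block, other choices of probe and fold limit, and leaving out arrays. Same-numbered samples deviated together with correlations of 0.09, 0.06 and 0.01, so the numbers were not taken as pairs.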

Additional observations from a re-analysis of the deposited data

How the results depend on the processing

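The replicate numbers only name samples, and with a replicate block 0 probes, 0 of the 10 genes and 0 of the 66 pathway genes passed by limma. At an unadjusted p under 0.05 that fit held 3 of the 10 genes and 23 of the 66, beside 11671 of 55681 probes. Under the block the adjusted p was 0.0924 for Heyl and 0.149 for Notch1. By the methods' t-test 0 of the 10 genes passed, and 2 had an unadjusted p under 0.05, beside 12532 of 55660 probes. Of the 66 pathway genes 2 and 3 passed toward A+/G+ and A-/G+. Past both limits were 487 and 121 probes in these directions. The limma fit gave 851 and 222 probes. A 75th percentile shift gave 777 and 2055, which turns the split between the directions, and moved the median of all named genes from -0.03 to -0.39. Under this shift Notch3 was at -0.03, Hes5 at -0.17 and the dimmer Dll1 probe at -1.58, all of the opposite sign to before. Hes1, not well above background on any array, passed at -1.63 (adjusted p = 0.0489 by limma). With normexp 234 and 48 probes and 0 of the 10 genes passed both limits, though 2 passed the adjusted p, and Notch3 (-0.01), Hey1 (0.15), Jag1 (-0.01) and Hes1 (0.08) changed sign without passing. Without A-/G+ replicates 1 and 2, which assumes the lone A-/G+ array varies like the others, 1 of the 10 genes passed the adjusted p, 0 passed both limits, 2 pathway genes passed toward A-/G+, Notch1 had an adjusted p of 0.0594 and its dimmer probe turned to 0.74 (adjusted p = 0.0474). With a gene's probes averaged 1 of the 10 genes passed, and with a 2-fold limit 2 passed both.

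Leaving out 1 array at a time, 340 to 1458 probes passed both limits toward A+/G+ and 77 to 490 toward A-/G+, 0 to 3 of the 10 genes passed the adjusted p and 0 to 1 both limits, and 1 to 20 and 1 to 10 pathway genes passed. The highest counts were without A-/G+ replicate 3. Differences spanned zero for Notch3 (-0.09 to 0.06), Hey1 (-0.18 to 0.16), Jag1 (-0.09 to 0.08), Hes5 (-0.03 to 0.23), Dll1 (-0.04 to 0.43, dimmer probe -0.03 to 0.08) and the dimmer Notch1 probe (-0.46 to 0.36). The dimmer Notch2 probe passed under the 75th percentile shift (adjusted p = 0.0489), the filter on dim probes (0.0343) and without A-/G+ replicate 3 (0.0116). The causes were not tested. Signal over background limits Hes1, the second Dll1 probe and Heyl in A-/G+.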

Other observations

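The spread between A-/G+ samples exceeded that between A+/G+ samples for 9 of the 10 genes, with median SDs of 0.33 and 0.15 on the log2 scale. The same held for 79.4% of all named genes, with median SDs of 0.27 and 0.11.

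The 2 probes of Rbpj, the DNA-binding partner of all Notch receptors, pointed in opposite directions without overlap. The brighter probe gave 8.89, 9.09 and 8.92 in A+/G+ and 8.46, 8.57 and 8.75 in A-/G+, a difference of 0.37 (adjusted p = 0.105 by limma). The dimmer probe, which reads an earlier part of the transcript, gave 5.89, 5.95 and 5.65 in A+/G+ and 6.88, 6.53 and 6.33 in A-/G+, a difference of -0.75 (adjusted p = 0.0645 by limma). Neither passed, and which transcripts each probe reads was not tested.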
